A study of Homo sapiens with 9 samples.

Results

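The genes of MHC class I antigen presentation examined here were HLA-B, HLA-C, HLA-E, B2M, TAP1, TAP2, TAPBP, NLRC5 and PSMB9, 9 genes of the 42717 in the count table, chosen by their gene symbols. Their mRNA was measured by strand-specific RNA-seq in 3 sublines of the human pancreatic ductal adenocarcinoma (PDAC) line SUIT-2, named S2-007, S2-020 and S2-028, with 3 libraries per line and 9 in all. All cells were untreated and grown in DMEM with inactivated fetal bovine serum. By the study's protein work, S2-007 carries maspin, a serpin protein, in the nucleus and the cytoplasm (panMaspin), S2-028 carries it in the cytoplasm (cytMaspin), and S2-020 has only weak maspin. Each state of maspin is thus represented by 1 line, so an effect of maspin and any other difference between the lines cannot be told apart. The sources used here do not say whether the libraries of a line came from separate cultures, so p-values measure the spread between these libraries, which may be technical.

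MHC class I molecules display peptides from inside the cell to cytotoxic T cells and to natural killer cells. Proteins are cut by the proteasome, the TAP transporter moves the peptides into the endoplasmic reticulum, and tapasin helps to load them onto a heavy chain that is bound to beta-2-microglobulin. NLRC5 is a transcriptional activator of these genes, and interferon raises many of them. Tumour cells often have reduced class I on their surface, and how strongly they present antigen bears on their recognition by T cells.

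The level of a gene is given in normalised CPM, counts scaled to the library total with TMM normalisation. The total count was between 60328748 and 86253923 per library, and the 9 genes together took between 74874 and 120899 counts of a library. This sum does not give the counting error of a single gene, and NLRC5 had the fewest counts, with 349 in a library of S2-028. Keratins of epithelial cells were abundant in every library (the 8 epithelial and duct markers summed to at least 4525 CPM), although they were lowest in S2-020, where KRT8 had 2885 ± 363 CPM (SD, n = 3) against 4873 ± 152 in S2-007 and 8421 ± 812 in S2-028. All 5 acinar markers were below 1 CPM in each line. Calls required both an adjusted p under 0.05 (edgeR's quasi-likelihood test, adjusted by Benjamini-Hochberg) and a difference of 1.5-fold or more, named the fold limit here. The 3 comparisons share libraries, so they are not independent of each other.

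The promoters are printed first, because the members share motifs there and the regulators of those motifs are described further on. Each line gives the 250 bases upstream of a gene's start, read 5' to 3' on the gene's own strand, from RefSeq on GRCh38.p14, where 7 of the 9 genes were found (all but HLA-E and NLRC5). Capitals mark matches on either strand to the core that interferon regulatory factors bind (AANNGAAA), the core of a cyclic AMP response element (TGACG), the CCAAT box (CCAAT) and the kappaB site (GGGANNNNCC).
B2M (chr15:44711267-44711516, plus strand): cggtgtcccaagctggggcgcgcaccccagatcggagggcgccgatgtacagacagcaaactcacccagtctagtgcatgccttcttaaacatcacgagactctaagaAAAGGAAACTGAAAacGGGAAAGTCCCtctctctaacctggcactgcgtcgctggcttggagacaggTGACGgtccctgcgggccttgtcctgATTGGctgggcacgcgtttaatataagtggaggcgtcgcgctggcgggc
HLA-B (chr6:31357180-31357429, minus strand): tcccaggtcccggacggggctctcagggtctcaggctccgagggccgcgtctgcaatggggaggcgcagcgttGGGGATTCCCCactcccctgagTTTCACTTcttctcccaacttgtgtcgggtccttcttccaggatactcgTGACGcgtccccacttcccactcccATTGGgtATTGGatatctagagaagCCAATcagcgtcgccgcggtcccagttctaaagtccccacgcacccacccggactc
TAP1 (chr6:32853705-32853954, minus strand): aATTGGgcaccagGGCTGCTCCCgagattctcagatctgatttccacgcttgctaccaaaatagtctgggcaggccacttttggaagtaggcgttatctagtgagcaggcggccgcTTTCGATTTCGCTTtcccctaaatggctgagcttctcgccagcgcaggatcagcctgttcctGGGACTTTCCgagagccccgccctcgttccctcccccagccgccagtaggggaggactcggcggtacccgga
TAP2 (chr6:32838740-32838989, minus strand): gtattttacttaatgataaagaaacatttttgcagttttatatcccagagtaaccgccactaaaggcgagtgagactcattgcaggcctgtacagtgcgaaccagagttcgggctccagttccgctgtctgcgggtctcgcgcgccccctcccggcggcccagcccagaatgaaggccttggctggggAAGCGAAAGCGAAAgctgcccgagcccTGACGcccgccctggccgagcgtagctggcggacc
PSMB9 (chr6:32853942-32854191, plus strand): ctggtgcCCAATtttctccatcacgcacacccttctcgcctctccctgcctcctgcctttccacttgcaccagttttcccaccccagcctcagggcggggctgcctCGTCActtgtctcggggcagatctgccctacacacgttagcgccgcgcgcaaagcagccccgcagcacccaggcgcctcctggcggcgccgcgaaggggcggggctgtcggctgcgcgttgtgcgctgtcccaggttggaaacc
Of the 7 windows, 6 held the interferon regulatory factor core, which 20.3% of all 35116 promoter windows of this length held. The cyclic AMP response core was in 5 of 7 and in 21.2% of all windows, the CCAAT box in 5 of 7 and in 32%, and the kappaB site in 5 of 7 and in 22.6%. HLA-B, HLA-C and B2M held all 4 motifs, TAP1 all but the cyclic AMP response core, and TAP2 the cores for interferon regulatory factors and the cyclic AMP response. In the B2M, TAP1, TAP2 and TAPBP windows the interferon regulatory factor core occurs as a pair of overlapping matches, which makes 1 longer run of capitals. In PSMB9 the window held the CCAAT box and the cyclic AMP response core but no match to the other motifs. TAP1 and PSMB9 are transcribed away from each other, and the far ends of their windows overlap. The CCAAT box of the TAP1 window and that of the PSMB9 window are the same bases in this overlap. This site was therefore counted for both genes in the 5 of 7. A match is a description of the letters and not a binding site.

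Of the 9 genes, all of which passed the filter on low counts in each comparison, 1 was called between S2-028 and S2-007 (B2M), where 18.4% of the 26371 genes tested were called. Between S2-020 and S2-007, 4 were called (B2M lower, and NLRC5, PSMB9 and TAP2 higher, in S2-020), beside 21.6% of all 26657 genes tested. Between S2-028 and S2-020, 3 were called, all lower in S2-028 (NLRC5, TAP1 and PSMB9), beside 22.2% of 26031 genes. The heavy chains HLA-B, HLA-C and HLA-E were called in none of the comparisons. Over the 9 genes the median log2 fold change was -0.09, 0.16 and -0.28 in the same order, and the median of all genes tested was 0.00, -0.05 and 0.02. At an adjusted p under 0.05 without a limit on the fold change, 4, 8 and 7 of the 9 genes passed, against 33.9%, 40.2% and 40.4% of all genes. The libraries of the lines compared did not overlap for 4, 8 and 7 of the 9 genes, and for 43.7%, 48.8% and 48.6% of all genes. In these bulk samples, fewer cells that express a gene and less of its RNA in each cell cannot be told apart.

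**Figure D1:**
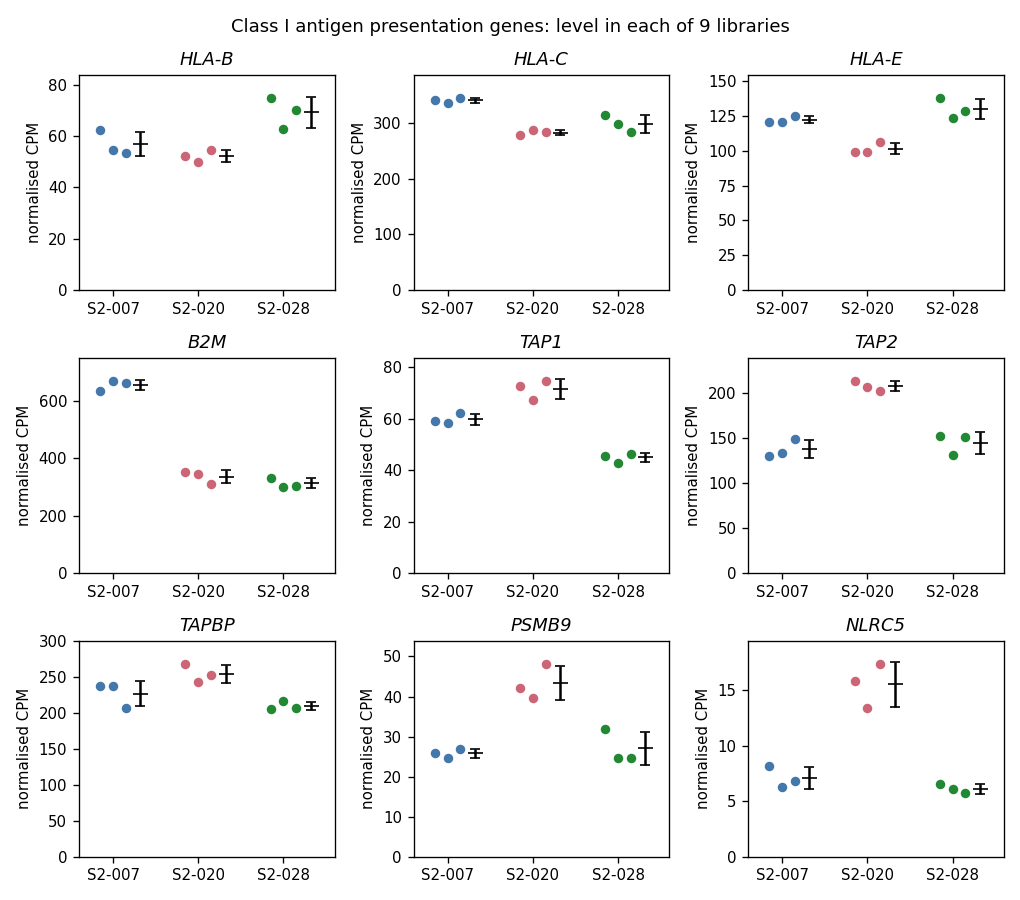
The level of each of the 9 genes in normalised CPM (vertical axis, from 0) in the 3 libraries of each line (points), with the mean and SD beside them (bars). B2M lies between 634 and 669 in S2-007 and between 302 and 354 in the other lines, and NLRC5 lies at 13.4 CPM or more in S2-020 and at 8.16 or less in the others.

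B2M encodes beta-2-microglobulin, the invariant light chain of every class I molecule, and lies on chromosome 15 (NCBI gene 567, chr15:44711517-44718145 on GRCh38.p14). Its level was 634, 669 and 663 normalised CPM in the S2-007 libraries, 354, 346 and 311 in those of S2-020, and 333, 302 and 305 in those of S2-028. Every S2-007 library stood above every library of the other lines, while the libraries of S2-020 and S2-028 overlapped. Compared with S2-007, B2M was 2.05-fold lower in S2-028 (log2 fold change -1.04, SE 0.0578, adjusted p = 4.96e-12) and 1.94-fold lower in S2-020 (-0.96, SE 0.0532, adjusted p = 1.03e-11). Between S2-028 and S2-020 the log2 fold change was -0.11 with a 95% interval from -0.23 to 0.00 (adjusted p = 0.124). The summed level of 8 leukocyte marker genes was between 46.5 and 49.5 CPM in S2-007, between 11.8 and 16.2 in S2-020 and between 13.2 and 16.4 in S2-028. Most of that sum was CD68 (41.6 ± 2.11 CPM in S2-007, SD, n = 3), a lysosomal protein that tumour cells can also express. The markers did not move together: in each of the comparisons with S2-007, 3 were called lower and 1 higher (CD3E in S2-028 and ITGAM in S2-020, named after their values were seen), and the median log2 fold change of those tested was 0.00 in S2-028 (8 genes) and -0.72 in S2-020 (7 genes). PTPRC, the pan-leukocyte antigen CD45, had at most 0.403 CPM in any library, CD3E had no count in S2-007, and 6 of the 8 markers were below 1 CPM there. The part of the leukocyte markers in the difference of B2M was not tested.

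The classical heavy chains bind the peptide and meet the T cell receptor. HLA-B (NCBI gene 3106, chr6:31353875-31357179) had 62.2, 54.6 and 53.5 normalised CPM in the S2-007 libraries, 52.2, 49.9 and 54.4 in those of S2-020, and 74.8, 62.8 and 69.9 in those of S2-028. The S2-028 libraries were the highest and overlapped with neither of the other lines, and those of S2-007 and S2-020 overlapped. The log2 fold change of HLA-B was 0.31 in S2-028 against S2-007 (SE 0.0762, adjusted p = 0.00259) and 0.40 against S2-020 (SE 0.0676, adjusted p = 6.56e-05), both under the fold limit. HLA-C (NCBI gene 3107, chr6:31268749-31272092) was the most abundant heavy chain of the set, with 340.8 ± 4.2 CPM (SD, n = 3) in S2-007, 283 ± 4.96 in S2-020 and 298 ± 15.4 in S2-028. It was highest in S2-007 without overlap, by a log2 fold change of -0.17 in S2-028 (adjusted p = 0.0286) and -0.27 in S2-020 (adjusted p = 9.36e-05). For S2-028 the adjusted p of HLA-C was over 0.05 in some other settings. It was 0.0505 with edgeR's likelihood ratio test, and 0.152 with the quasi-likelihood test without S2-028 replicate 3. HLA-E (NCBI gene 3133, chr6:30489509-30494194), a nonclassical heavy chain that presents leader peptides of other class I chains to the NKG2A receptor of natural killer cells, had 122 ± 2.49 CPM in S2-007, 102 ± 4.02 in S2-020 and 130.0 ± 7.45 in S2-028. It was lowest in S2-020, at a log2 fold change of -0.27 against S2-007 (adjusted p = 0.000323) and with 0.35 for S2-028 against S2-020 (adjusted p = 4.34e-05). The line that stood apart thus differed between the heavy chains: S2-028 was the highest for HLA-B, S2-007 the highest for HLA-C, as for B2M, and S2-020 the lowest for HLA-E.

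The heavy chain genes resemble each other, and 15.5% of the 31-base words of the HLA-B transcript, 19.6% of those of HLA-C and 12.0% of those of HLA-E also occur in other annotated genes. For HLA-B and HLA-C the gene that shared most was the other of the pair, with 10.7% and 10.8% of the words. B2M, NLRC5 and PSMB9 shared none. How reads with several matches were counted, and how reads of alleles that differ from the reference were treated, is not given in the sources used here, so the levels of the heavy chains are less certain than that of B2M.

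Peptides are carried into the endoplasmic reticulum by a transporter of 2 chains, TAP1 and TAP2. TAP1 (NCBI gene 6890, chr6:32845209-32853704) had 59.1, 58.3 and 62.4 normalised CPM in the S2-007 libraries, 72.8, 67.4 and 74.7 in those of S2-020, and 45.7, 43.0 and 46.5 in those of S2-028. The 3 lines were fully separated, with S2-020 highest and S2-028 lowest. TAP1 was 1.60-fold lower in S2-028 than in S2-020 (log2 fold change -0.68, SE 0.0636, adjusted p = 3.91e-08), and the steps from S2-007 were smaller, 0.26 to S2-020 (adjusted p = 0.00139) and -0.39 to S2-028 (adjusted p = 8.47e-05). With the fold limit built into the null hypothesis (edgeR's glmTreat), TAP1 was not called between S2-028 and S2-020 (adjusted p = 0.156).

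TAP2 (NCBI gene 6891, chr6:32821831-32838739) had 130.1, 133 and 149 normalised CPM in the S2-007 libraries, 213, 207 and 202 in those of S2-020, and 152, 131 and 151 in those of S2-028. The S2-020 libraries were above all others, and the other lines overlapped. TAP2 was 1.51-fold higher in S2-020 than in S2-007 (log2 fold change 0.59, SE 0.0572, adjusted p = 4.28e-08), just past the fold limit. It was called in 9 of 16 other settings, with log2 fold changes from 0.54 to 0.69, and the call was lost without S2-020 replicate 1 (0.57), S2-007 replicate 1 (0.56) or S2-007 replicate 2 (0.58). S2-028 was 0.53 below S2-020 on the log2 scale (SE 0.0580, adjusted p = 3.21e-07), which is under the limit. Of the 31-base words of the TAP2 transcript, 35.5% also occur in another annotated gene that overlaps it, so its count may depend on how shared reads were assigned.

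TAPBP encodes tapasin, which bridges TAP and the empty heavy chain (NCBI gene 6892, chr6:33299694-33314078). It had 227 ± 17.7 normalised CPM (SD, n = 3) in S2-007, 254 ± 12.7 in S2-020 and 209.8 ± 5.66 in S2-028, and its log2 fold change was at most 0.28 in size in any comparison. S2-020 was above S2-028 in every library (-0.28 for S2-028 against S2-020, adjusted p = 0.000163), and S2-028 and S2-007 overlapped (-0.09, 95% interval -0.22 to 0.04). Other genes of the GENCODE annotation, taken on either strand, overlap 40.5% of the TAPBP exon bases and 35.8% of those of TAP2. For HLA-B and TAP1 the shares are 23.7% and 21.5%. Whether these overlapping genes are among those counted was not examined.

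PSMB9 encodes a catalytic subunit of the immunoproteasome, which replaces PSMB6 of the constitutive proteasome (NCBI gene 5698, chr6:32854192-32859851). Its level was 25.8, 24.7 and 26.8 normalised CPM in the S2-007 libraries, 42.2, 39.7 and 48.1 in those of S2-020, and 31.8, 24.7 and 24.7 in those of S2-028. The S2-020 libraries were the highest, and the libraries of S2-007 and S2-028 overlapped. PSMB9 was 1.68-fold higher in S2-020 than in S2-007 (log2 fold change 0.75, SE 0.0769, adjusted p = 1.03e-07) and 1.61-fold lower in S2-028 than in S2-020 (-0.69, SE 0.0959, adjusted p = 7.03e-06). The second of these was not called with glmTreat (adjusted p = 0.273). Between S2-028 and S2-007 the log2 fold change was 0.10 (95% interval -0.11 to 0.30), and it was -0.035 without S2-028 replicate 1, the library at 31.8.

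The exchange of subunits was described by the ratio of each inducible subunit to the constitutive one it replaces, in CPM. The ratio of PSMB9 to PSMB6 was 0.293 ± 0.00961 (SD, n = 3) in S2-007, 0.672 ± 0.0529 in S2-020 and 0.359 ± 0.0521 in S2-028. For PSMB10 and PSMB7 it was 0.297 ± 0.0149, 0.727 ± 0.0273 and 0.238 ± 0.0106 in the same order, and every S2-020 library was above every other library for both pairs. The ratio of PSMB8 to PSMB5 was 0.527 ± 0.0788, 0.607 ± 0.0426 and 0.558 ± 0.0187, with overlapping libraries. The higher PSMB9 ratio of S2-020 rested on both genes, since PSMB6 had 64.4 ± 2.68 CPM there against 87.9 ± 1.77 in S2-007 (log2 fold change -0.45, SE 0.0557, adjusted p = 1.38e-06, under the fold limit). The ratios are given as a description, without a test.

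**Figure D2:**
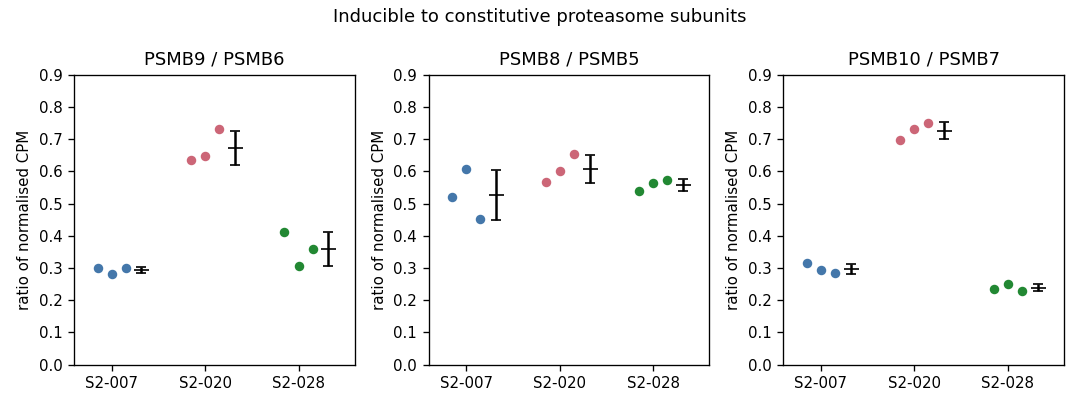
The ratio of an inducible to a constitutive proteasome subunit in normalised CPM (vertical axis, from 0) in the 3 libraries of each line (points), with the mean and SD (bars). The S2-020 libraries stand apart for PSMB9 over PSMB6 (mean 0.672) and PSMB10 over PSMB7 (mean 0.727) but overlap with the others for PSMB8 over PSMB5 (mean 0.607).

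NLRC5 encodes the transactivator of class I genes and lies on chromosome 16 (NCBI gene 84166, chr16:56989557-57083520). It was the least abundant of the 9 genes, with 8.16, 6.23 and 6.79 normalised CPM in the S2-007 libraries, 15.8, 13.4 and 17.4 in those of S2-020, and 6.59, 6.09 and 5.70 in those of S2-028. The S2-020 libraries were clear of all others, and the rest overlapped. NLRC5 was 2.20-fold higher in S2-020 than in S2-007 (log2 fold change 1.14, SE 0.124, adjusted p = 2.51e-07) and 2.55-fold lower in S2-028 than in S2-020 (-1.35, SE 0.123, adjusted p = 2.53e-08). Between S2-028 and S2-007 it was -0.18 with a 95% interval from -0.49 to 0.13 (adjusted p = 0.417). NLRC5 kept its 2 calls in all 16 other settings of each comparison. In S2-020, the line with the most NLRC5, the log2 fold changes of the other 8 genes against S2-007 ranged from -0.96 to 0.75. They were -0.96 for B2M, -0.27 for HLA-C and HLA-E, and -0.12 for HLA-B. Above 0 were TAPBP (0.16), TAP1 (0.26), TAP2 (0.59) and PSMB9 (0.75).

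**Figure D3:**
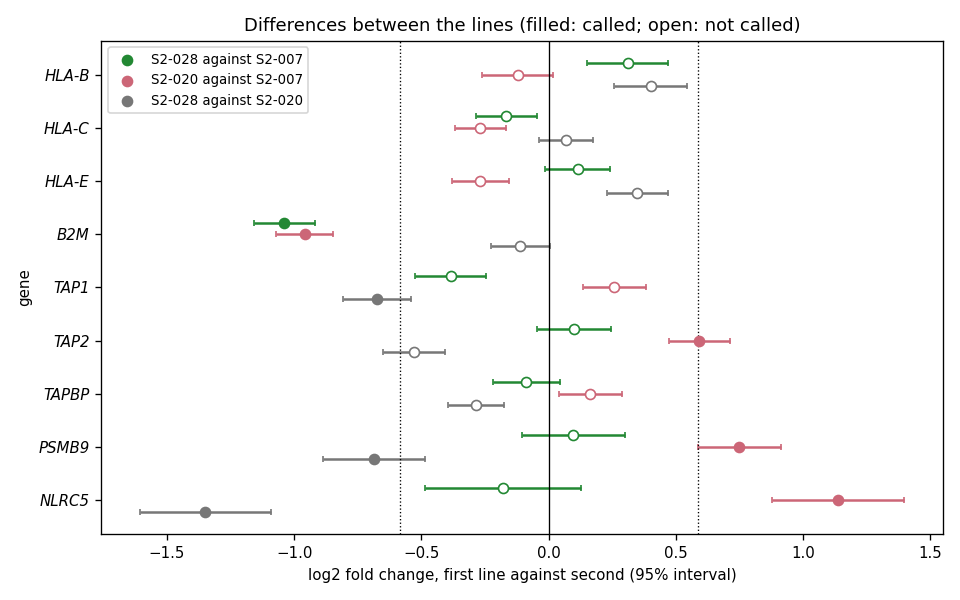
The log2 fold change (horizontal axis) of the 9 genes in the 3 comparisons (colours), with 95% intervals as bars, filled points for called genes and dotted lines at a 1.5-fold difference in either direction. B2M is the only gene below the limit against S2-007 in both other lines (-1.04 and -0.96), and the S2-020 values of NLRC5 (1.14), PSMB9 (0.75) and TAP2 (0.59) lie above it.

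Levels of different genes were compared as normalised CPM per kilobase of the transcript. In S2-007 the order was B2M (695 ± 19.7, SD, n = 3), HLA-C (221 ± 2.73), TAPBP (65.8 ± 5.12), HLA-E (48.0 ± 0.978), HLA-B (37.0 ± 3.08), PSMB9 (25.3 ± 1.03), TAP2 (24.4 ± 1.82), TAP1 (22.3 ± 0.795) and NLRC5 (1.04 ± 0.146). The libraries of PSMB9 and TAP2, and of TAP2 and TAP1, overlapped, so their order was not resolved there. In S2-028 the order was the same, with overlap between HLA-E (51.0 ± 2.92) and HLA-B (45.1 ± 3.93) and between PSMB9 (26.6 ± 4.02) and TAP2 (25.6 ± 2.12). In S2-020, PSMB9 (42.6 ± 4.21) and TAP2 (36.7 ± 0.946) stood above HLA-B (34.0 ± 1.46), and only PSMB9 and HLA-E (39.9 ± 1.58) overlapped among neighbours. Per kilobase, B2M stood at 357 ± 24.2 in S2-020 and 332 ± 18.3 in S2-028, and HLA-C, the next gene, at 183 ± 3.22 and 193 ± 9.97.

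The members lie on 3 chromosomes. HLA-E, HLA-C and HLA-B lie in the class I part of the MHC on chromosome 6, TAP2, TAP1 and PSMB9 lie close together in its class II part with TAPBP nearby, and B2M and NLRC5 lie on other chromosomes. Beside each member, the 50 nearest tested genes were described. The neighbours of B2M, over about 2.5 Mb, had a median log2 fold change of -0.52 in S2-020 against S2-007, with 17 of 50 called lower and 1 called higher, beside 12.1% and 9.57% of all genes. In S2-028 against S2-007 their median was -0.23, with 7 called lower and 2 higher, beside 8.19% and 10.2% of all genes. The neighbours of NLRC5 had a median of 0.33 in S2-020 against S2-007, with 14 called higher and 3 lower, and of -0.47 in S2-028 against S2-020, with 17 called lower and 3 higher, beside 10.1% and 12.1% of all genes. The median around NLRC5 was 0.18 in S2-028 against S2-007, with 10 called higher and 3 lower (NLRC5 itself -0.18). That around B2M was 0.35 in S2-028 against S2-020, with 11 called higher and 2 lower (B2M itself -0.11). Neither member was called in these comparisons, so the side of 0 on which it lay was not resolved. The neighbours of TAP1, TAP2 and PSMB9, which are the same genes, had a median of -0.15 in S2-020 against S2-007, on the other side of 0 from the members. Among these neighbours, 11 were called lower and 2 higher, beside 12.1% and 9.57% of all genes. Their stretch of chromosome 6 holds MHC class II genes such as HLA-DRA, whose lower level in S2-020 is described further on. Their median is therefore not free of that difference. The part of a shared regional difference in the values of B2M and NLRC5 was not tested.

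**Figure D4:**
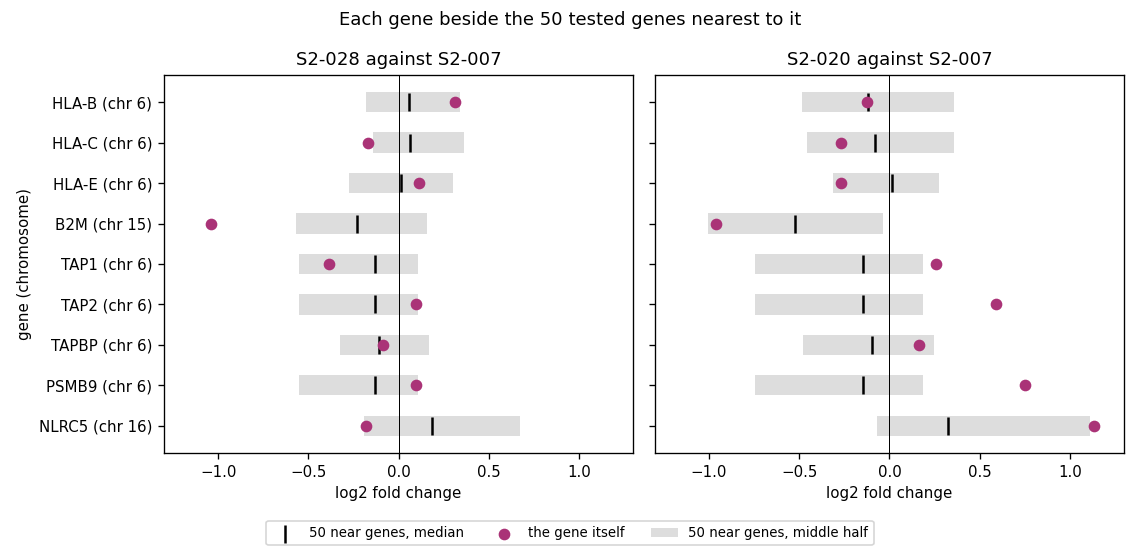
The log2 fold change (horizontal axis) of each member (point) beside the median (tick) and interquartile range (grey bar) of the 50 tested genes nearest to it, for both other lines against S2-007. The neighbours of B2M have medians of -0.23 in S2-028 and -0.52 in S2-020, those of NLRC5 0.18 and 0.33, and the others lie between -0.15 and 0.06.

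Beyond the 9 members, 80 further genes of the class I pathway were listed by function, and 18 of the 79 tested were called in S2-028 against S2-007 (22.8%, with 7 higher and 11 lower), beside 18.4% of all genes. In S2-020 against S2-007, 27 of 80 were called (33.8%, 19 higher and 8 lower), beside 21.6% of all genes, and in S2-028 against S2-020, 24 of 80 (30.0%, 9 higher and 15 lower), beside 22.2%. The median log2 fold changes of the list were 0.02, 0.07 and -0.20, and those of all genes 0.00, -0.05 and 0.02. For the lists within it, the share of all genes called was 9.57% higher and 12.1% lower in S2-020 against S2-007, and 10.2% higher and 8.19% lower in S2-028 against S2-007.

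Among the 8 other proteasome subunits and activators, PSMB10, a further inducible subunit, was called in each comparison. It had 46.9 ± 2.36 normalised CPM (SD, n = 3) in S2-007, 86.9 ± 0.976 in S2-020 and 28.8 ± 0.535 in S2-028, which makes it 1.85-fold higher in S2-020 (log2 fold change 0.89, SE 0.0575, adjusted p = 1.11e-10) and 1.60-fold lower in S2-028 (-0.68, SE 0.0735, adjusted p = 1.61e-07) than in S2-007. PSMB8, whose gene lies between TAP1 and TAP2, had 59.9 ± 4.94, 74.5 ± 5.72 and 50.5 ± 2.29 CPM and was called in no comparison. PSME2, a subunit of the PA28 activator, was called between S2-028 and S2-020 alone (-0.63, adjusted p = 1.03e-08), though it also had 0.51 in S2-020 against S2-007.

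Of the 7 peptidases that trim or destroy peptides, 3 were called higher and 1 lower in S2-020 than in S2-007 (57.1%, beside 21.6% of all genes). ERAP1, which trims peptides in the endoplasmic reticulum, had 56.5 ± 1.68 normalised CPM in S2-007, 110.0 ± 1.40 in S2-020 and 74.0 ± 4.10 in S2-028 (0.96 in S2-020, SE 0.0539, adjusted p = 1.21e-11). Its relative ERAP2 had a log2 fold change of 0.73 in S2-020 (SE 0.0491, adjusted p = 1.79e-10). TPP2, a large cytosolic peptidase, moved in opposite directions, with 74.7 ± 1.78 CPM in S2-007, 141 ± 1.47 in S2-020 and 40.5 ± 0.874 in S2-028 (0.92 and -0.86 against S2-007, adjusted p = 1.29e-11 and 5.30e-10). NPEPPS, a cytosolic aminopeptidase, was 0.67 lower in S2-020 on the log2 scale. In S2-028 against S2-007, TPP2 was called lower and LNPEP, an aminopeptidase of endosomes that was picked out after its values were seen, higher (0.70).

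Of 7 chaperones and editors of the endoplasmic reticulum, 3 were called higher in S2-020 than in S2-007 (42.9%, beside 9.57% of all genes) and none was called in S2-028 against S2-007 (18.4% of all genes). CALR, encoding calreticulin of the peptide loading complex, had 735 ± 8.49 normalised CPM in S2-007, 1204 ± 18.5 in S2-020 and 788 ± 43.5 in S2-028 (0.71 in S2-020, SE 0.0420, adjusted p = 2.65e-11). CANX, encoding calnexin, had a log2 fold change of 0.59 (SE 0.0438, adjusted p = 9.09e-10), close to the limit. TAPBPL, a peptide editor related to tapasin, had 25.9 ± 1.41, 41.8 ± 2.79 and 20.8 ± 1.25 CPM (0.69 in S2-020, adjusted p = 1.57e-07).

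**Figure D5:**
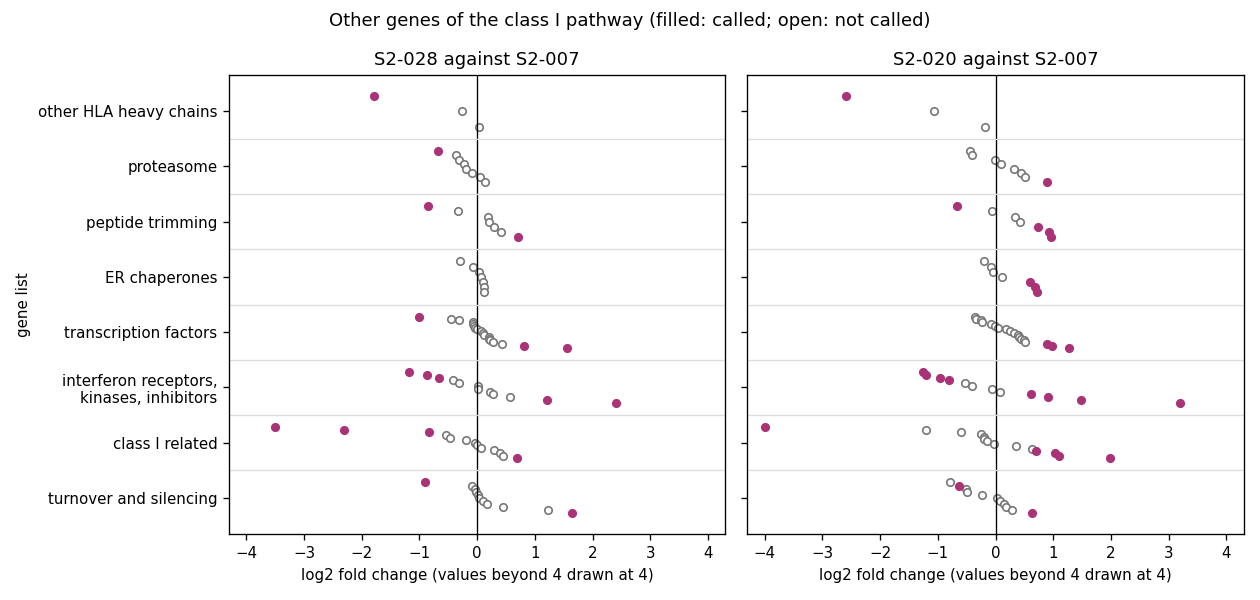
The log2 fold change (horizontal axis) of the 80 further class I pathway genes by functional list (vertical axis) in S2-028 and S2-020 against S2-007, with filled points for called genes; 1 value below -4 is drawn at -4. For the chaperones, 3 of 7 points are filled in S2-020, all above 0, and none in S2-028.

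The factors that bind the promoter motifs printed above were then examined. Of 18 transcription factors of class I genes, 3 were called in S2-020 against S2-007, all higher, and 3 in S2-028 against S2-007, 2 higher and 1 lower. That is 16.7% in either comparison, below the 21.6% and 18.4% of all genes, so the count does not set these factors apart. IRF1, an activator that binds the interferon regulatory factor core, had 43.7, 44.8 and 47.5 normalised CPM in the S2-007 libraries, 89.7, 88.4 and 89.5 in those of S2-020 and 44.8, 49.4 and 46.3 in those of S2-028. S2-020 was thus 1.97-fold above S2-007 (log2 fold change 0.98, SE 0.0566, adjusted p = 1.97e-11), and S2-028 and S2-007 overlapped (0.07, 95% interval -0.07 to 0.22). RELB, a subunit of NF-kappaB, was higher in both lines than in S2-007 (1.28 in S2-020, adjusted p = 1.82e-09, and 0.82 in S2-028, adjusted p = 1.67e-06). RELA, another subunit of NF-kappaB, was picked out after its values were seen and went the other way. It had 215 ± 11.7 CPM in S2-007, 180 ± 7.26 in S2-020 and 170 ± 8.18 in S2-028, highest in S2-007 without overlap. STAT2 of the interferon-stimulated complex ISGF3 was, like RELB, higher in both lines (0.88 and 1.55). Its partner IRF9 was lower in S2-028 (-1.01, SE 0.122, adjusted p = 8.10e-07). No other factor of the 18 was called against S2-007. RFX5, part of the complex through which NLRC5 acts, had 71.4 ± 1.04, 80.7 ± 3.25 and 70.3 ± 1.26 CPM, with no call in any comparison.

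Of 12 interferon receptors, kinases and inhibitors, 8 were called in S2-020 against S2-007 (4 higher, 4 lower) and 5 in S2-028 against S2-007 (2 higher, 3 lower), which is 66.7% and 41.7% beside 21.6% and 18.4% of all genes. IFNGR1, the ligand-binding chain of the interferon gamma receptor, had 54.6 ± 2.83 normalised CPM in S2-007, 28.1 ± 0.981 in S2-020 and 23.7 ± 1.92 in S2-028 (-0.96 and -1.18, adjusted p = 2.99e-10 and 1.02e-10). IFNGR2 (-1.21 and -0.87) and IFNAR2 of the type I receptor (-1.25 and -0.67) were also lower in both lines. JAK1, a kinase of these receptors, was 1.88-fold higher in S2-020 (0.91, SE 0.0488, adjusted p = 6.11e-12). SOCS1, an inhibitor of JAK kinases that was picked out after its values were seen, had 0.463 ± 0.176 CPM in S2-007, 4.24 ± 0.666 in S2-020 and 2.42 ± 0.065 in S2-028. Of 10 interferon genes, 2 at most passed the filter on low counts in a comparison, and the highest level was 1.53 CPM for IFNE in a library of S2-020.

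A list of 46 interferon-stimulated genes, 44 of them tested in each comparison, served as a readout beside the class I genes. In S2-020 against S2-007, 20 were called lower and 3 higher, with a median log2 fold change of -0.48, and in S2-028 against S2-007, 16 lower and 3 higher, with a median of -0.25. Of all genes, 12.1% were called lower and 9.57% higher in the first of these comparisons, and 8.19% lower and 10.2% higher in the second. In S2-028 against S2-020, 13 were called higher and 9 lower, beside 12.1% and 10.1% of all genes. BST2, encoding tetherin, had 98.6 ± 3.54 normalised CPM in S2-007, 14.7 ± 0.715 in S2-020 and 62.5 ± 3.15 in S2-028. OAS1, a sensor of double-stranded RNA, had 72.3 ± 1.21, 19.7 ± 3.12 and 14.3 ± 1.48, and GBP2, a guanylate-binding protein, had 43.0 ± 4.48, 51.9 ± 6.28 and 2.17 ± 0.0628. BST2 and OAS1 were highest in S2-007, and NLRC5, PSMB9, TAP2 and IRF1 in S2-020. S2-020 also had the highest mean of GBP2, though its GBP2 libraries overlapped with those of S2-007. GBP4, picked out after its values were seen, was highest in S2-020 too. It had 5.83 ± 0.930 CPM in S2-007, 13.0 ± 0.503 in S2-020 and 3.25 ± 1.04 in S2-028. In S2-020 against S2-007, 15 of the 44 interferon-stimulated genes tested had a log2 fold change above 0. The part of interferon in the class I values was not tested.

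Genes that act on class I molecules after synthesis, or that silence their genes, numbered 11, of which 2 were called in each of the comparisons with S2-007 (18.2%). This is no more than the share of all genes called, 18.4% in S2-028 and 21.6% in S2-020. MARCHF9, a ubiquitin ligase that removes class I from the surface, had 19.2 ± 1.56 normalised CPM in S2-007, 16.3 ± 0.547 in S2-020 and 59.1 ± 5.63 in S2-028, and so was 3.13-fold higher in S2-028 than in S2-007 (log2 fold change 1.64, SE 0.0860, adjusted p = 1.80e-12). SUSD6, which acts with TMEM127 and WWP2 to send class I to the lysosome, was lower in both lines (-0.90 in S2-028, adjusted p = 4.21e-07, and -0.64 in S2-020, adjusted p = 1.03e-05), whereas WWP2 was higher in S2-020 (0.64, adjusted p = 4.61e-08). HLA-F, a nonclassical heavy chain, was lower in both lines as well, with 12.5 ± 1.02 CPM in S2-007, 2.08 ± 0.199 in S2-020 and 3.57 ± 0.639 in S2-028 (-2.58 and -1.78, adjusted p = 5.63e-12 and 3.26e-09). HLA-G was at most 0.712 CPM in any library.

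The genes whose pattern was most like that of a member were sought among the 14042 genes whose log2 CPM averaged 1 or more, by the root mean square difference of their centred log2 CPM over the 9 libraries. For NLRC5 they were PCDH7 (0.126), a protocadherin, NUDT6 (0.128) and AARS1 (0.139), the alanyl-tRNA synthetase. PCDH7 had 125 ± 5.03 normalised CPM in S2-007, 269 ± 3.53 in S2-020 and 103 ± 3.42 in S2-028. For HLA-B they were LCMT2 (0.0567), BLOC1S6 (0.0584) and DUT (0.0636), the dUTPase. With 3 lines, many genes can share an order by their line means, so the likeness is a description.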

How the data were processed

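RNA from the 3 SUIT-2 sublines was sequenced by the authors as strand-specific poly(A) libraries on an Illumina instrument, 3 per line, assigned to lines by their titles. Per the submitters' processing notes, Trimmomatic 0.39, BWA 0.7.17 and SAMtools 1.12 were used with GRCh38.p14. The authors deposited whole-number counts of mapped reads per gene, without normalization, for 42717 genes, which were used here. A further 2 lines of the table that name no gene were left out, and 18 columns of normalized signal that the authors deposited in the same table were not used. The counting tool and its treatment of strand, overlapping genes and reads with several matches are not given in the sources used here. Since BWA aligns without splicing, reads that span a junction can be lost.

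The tests used edgeR 4.0.16 with limma 3.58.1 in R 4.3.3, and each fit held the 6 libraries of a pair of lines. Genes were kept by filterByExpr (minimum count 10, minimum total 15), normalized by TMM and compared by edgeR's quasi-likelihood F-test, with p-values adjusted over all genes tested by the Benjamini-Hochberg method. Printed CPM use TMM factors from all 9 libraries, so their ratio can differ slightly from a fold change. Standard errors were derived from the log2 fold change and its F statistic. Levels per kilobase used MANE Select transcripts of GENCODE, and coordinates and promoters came from RefSeq tables of GRCh38.p14, where 42539 rows (99.6%) were matched by gene ID. The total count per library was 60328748 to 86253923, with medians of 72534872 (S2-007), 75685674 (S2-020) and 61237397 (S2-028). Counts of libraries of 1 line differed beyond sampling noise (chi-square per gene of at least 8.28), so none was a repeat of another. The procedure was tested on simulated counts with known changes.

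The members and lists were chosen with earlier results of these data known. Named genes are the 9 members, up to 4 called genes of each list with the smallest adjusted p, some class I genes and regulators whatever their values, the top 2 of each marker list and the 3 genes most like NLRC5 and HLA-B. Alternatives were other normalizations, filters and tests (DESeq2 1.42.0 among them), a fit of all libraries, a replicate block and leaving out each library. Results that need some further genes are left out of the text.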

Additional observations from a re-analysis of the deposited data

How the results depend on the processing

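Of 432 values of the members' log2 fold changes under other settings, 422 kept their direction and their side of the threshold, 9 kept the direction and lost the call, and 1 changed sign, without passing the threshold in either case. The sign change was that of PSMB9 in S2-028 against S2-007, at -0.035 without S2-028 replicate 1, with 0.16 as the highest value when another library was left out. The lost calls were 7 of TAP2 in S2-020 against S2-007 (upper quartile factors, library totals, a stricter filter, glmTreat and without each of 3 libraries) and, with glmTreat, those of TAP1 and PSMB9 in S2-028 against S2-020. With glmTreat, which tests against a 1.5-fold difference, the genes called over the whole table fell to 2977 (S2-028 against S2-007), 3639 (S2-020 against S2-007) and 3638 (S2-028 against S2-020) from 4858, 5769 and 5788, by construction a stricter rule. In S2-028 against S2-020 it called 1 member and 12 pathway genes, against 3 and 24. No scaling moved the median of all genes by more than 0.0827. The replicate numbers in the labels gave no clear sign of pairing. The deviations of same-numbered libraries correlated between -0.05 and 0.14, and only 1 of 9 correlations was over 0.1. Those of differently numbered libraries lay between -0.19 and 0.17. Such correlations cannot show whether libraries with the same number were grown or prepared together. With the replicate number as a block, 4865, 5650 and 5716 genes were called, and the members called stayed at 1, 4 and 3 and the pathway genes at 18, 27 and 24. Of the members, NLRC5 had the fewest counts, with at least 349 in every library.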

Other observations

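MHC class II genes, which present peptides from outside the cell and are driven by CIITA, a relative of NLRC5, also differed between the lines. Of 12 genes listed for class II, with CIITA itself among them, 10 were called lower in S2-020 than in S2-007. In S2-028 against S2-007, 6 were called lower, and none was called higher in either comparison. Of all genes, 12.1% and 8.19% were called lower. HLA-DRA had 56.9 ± 2.57 normalised CPM (SD, n = 3) in S2-007, 0.0803 ± 0.0315 in S2-020 and 24.3 ± 1.83 in S2-028. CD74, the invariant chain, had 229.9 ± 18.9, 0.935 ± 0.118 and 294.6 ± 5.81 CPM. CIITA itself had 33.3 ± 0.910, 22.1 ± 0.576 and 30.8 ± 3.22 CPM. Its log2 fold change was -0.59 in S2-020 against S2-007 (edgeR's quasi-likelihood test, adjusted p = 7.89e-07), close to the fold limit, and it was among the 10 called. In S2-020 the class I transactivator NLRC5 was thus higher, and CIITA lower, than in S2-007.

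Several class I related molecules that are read by other receptors also differed. Of 14 such genes, 4 were called higher and 1 lower in S2-020 than in S2-007, beside 9.57% and 12.1% of all genes, and the 4 include MICB and ULBP1, ligands of the NKG2D receptor of natural killer cells. MICB had 25.5 ± 1.81 normalised CPM in S2-007, 52.1 ± 2.39 in S2-020 and 40.4 ± 3.72 in S2-028, and was called higher in S2-028 as well (log2 fold change 0.69, SE 0.0850, adjusted p = 1.04e-06). ULBP1 had 1.94 ± 0.146, 7.66 ± 1.64 and 1.06 ± 0.425 CPM. PROCR, the endothelial protein C receptor, had 130.5 ± 7.48 CPM in S2-007, 113 ± 4.75 in S2-020 and 26.0 ± 2.62 in S2-028. In S2-028 against S2-007 its log2 fold change was -2.30 (SE 0.0771, adjusted p = 1.15e-15). AZGP1, a soluble class I fold protein, had 13.7 ± 0.565 CPM in S2-007 and 1.19 ± 0.385 in S2-028, and in S2-020 it had 0.0554 CPM in 1 library and 0 in the others.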
